A study of Rattus norvegicus with 4 samples.

Results

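The comparison described here sets the 3 mimics of the miR-106b~25 cluster together against the control mimic. Ventricular cardiomyocytes, the beating muscle cells of the heart's pumping chambers, were isolated from wild type Wistar rats on postnatal day 1 and transfected with a synthetic mimic of hsa-miR-25-3p, hsa-miR-93-5p or hsa-miR-106b-5p, or with cel-miR-67, a worm miRNA used as control. Per the methods RNA was harvested 72 h after transfection, and the labels give the mimic concentration as 25 nM in 1 place and 25 mM in another. All 4 were primary cultures of the same genotype and age, for which the atria were cut away and non-muscle cells were reduced by preplating, and each culture gave 1 library. For every gene the log2 RPKM value of the control was subtracted from that of each mimic, and the mean of the 3 log2 differences is given with their SD. RPKM is a read number scaled to gene length and to library size. Of 15731 genes in the deposited values, 10984 had an RPKM above 1.0 in all 4 libraries, and these are the genes described.

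The mature rat sequences of the cluster miRNAs are shown because a miRNA selects its targets mainly by its seed, bases 2 to 8, which are in capitals. They were taken from RefSeq on the GRCr8 build, where the 3 miRNAs lie on the minus strand at chr12:22157103-22157123, chr12:22156894-22156916 and chr12:22156652-22156673, in the order listed.
rno-miR-106b-5p: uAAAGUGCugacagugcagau
rno-miR-93-5p: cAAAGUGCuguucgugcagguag
rno-miR-25-3p: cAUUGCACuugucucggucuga
The seeds of miR-106b and miR-93 were identical at 7 of 7 bases, whereas those of miR-106b and miR-25 matched at 3 of 7. The mimics thus stand for 2 seed families, with 2 members in one and 1 in the other, and a mean over the 3 gives the miR-106b and miR-93 family the larger weight.

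A miRNA guides an Argonaute protein to messenger RNAs that hold a match to its seed, mostly in the 3′ untranslated region, and the bound messenger is translated less and degraded sooner. The miR-106b~25 cluster lies in an intron of Mcm7, a subunit of the helicase that opens DNA for replication, and is related to the miR-17~92 cluster. Both clusters are known for lowering inhibitors of the cell cycle, among them p21 and p57, and members of the Rb and E2F families. A messenger that all 3 mimics lower or raise can be a target of both seeds or can lie downstream of other changes in the cell, and these cannot be told apart in RNA levels.

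The reads on the listed genes numbered between 15175185 in the control library and 18797234 in the miR-106b library, and the control library gave a median of 478.5 reads over the tested genes. Defining markers of cardiomyocytes were abundant in every library. The troponin T gene Tnnt2 had 2356, 2097 and 1749.9 RPKM with the mimics, always given in the order miR-106b, miR-93, miR-25, and 2433 RPKM in the control. Cardiac actin Actc1 had 5034, 2733 and 4953 RPKM with the mimics and 7073 RPKM in the control. The endothelial marker Cldn5 and the red cell marker Hemgn were at 0 in at least 1 library. The mimics are 3 different treatments and not replicates of a single one, so their SD measures how far the mimics differ and enters no test. With 4 libraries an exact permutation test could not give a p below 0.25, and none was run. Whether the single control library was unusual for a gene or all 3 mimics changed it cannot be told apart.

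Genes were called upregulated or downregulated where the mean of the 3 mimics lay at least 1.3-fold from the control, which is 0.379 on the log2 scale, and the control lay outside the range of the 3 mimics. By this rule 940 genes were upregulated, 8.56% of those tested, and 1054 were downregulated, 9.6%. Among upregulated genes 73 lay past 2-fold, and among downregulated genes 104. The mean alone passed the cutoff for 1074 higher and 1359 lower genes, and in 134 and 305 of these the control lay within the range of the mimics. Downregulated genes made up 52.9% of the calls. When the libraries were instead scaled to the same sum of RPKM over the tested genes, 1838 genes were called upregulated and 513 downregulated, 21.8% of the calls. That scaling put the median of all tested genes at 0.12 in place of -0.02, with medians of 0.03 for miR-106b, 0.14 for miR-93 and 0.22 for miR-25, since the summed RPKM of the tested genes was lower with each mimic than in the control. Under it the medians of 19 of the 45 gene lists described here turned from below to above 0, and these 19 lay between -0.14 and -0.01 as deposited. At the cutoff, Ccdc8 lay just inside the upregulated genes with a mean of 0.379 and the gene listed as Sep-04 just outside with 0.378, and RGD1302996 and Sec24d lay just inside and outside the downregulated genes at -0.379 and -0.378.

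The 3 mimics differed from each other about as much as most genes differed from the control. The median SD among the mimics was 0.23 over all tested genes, 0.24 over upregulated and 0.31 over downregulated genes, and it was larger than the size of the mean in 6298 of the tested genes. Of the 3 mimics, miR-25 lay farthest from the other two in 61.7% of the tested genes. The counting error of the recovered reads gave a 95% interval on the mean log2 difference that leaves out differences between cultures. It excluded 0 for 6318 of the tested genes, among them 895 upregulated and 1030 downregulated ones. Called genes were chosen for a mean away from 0, so their numbers follow in part from the rule. The plot of the mean against the SD shows called genes across the whole range of spread.

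**Figure D1:**
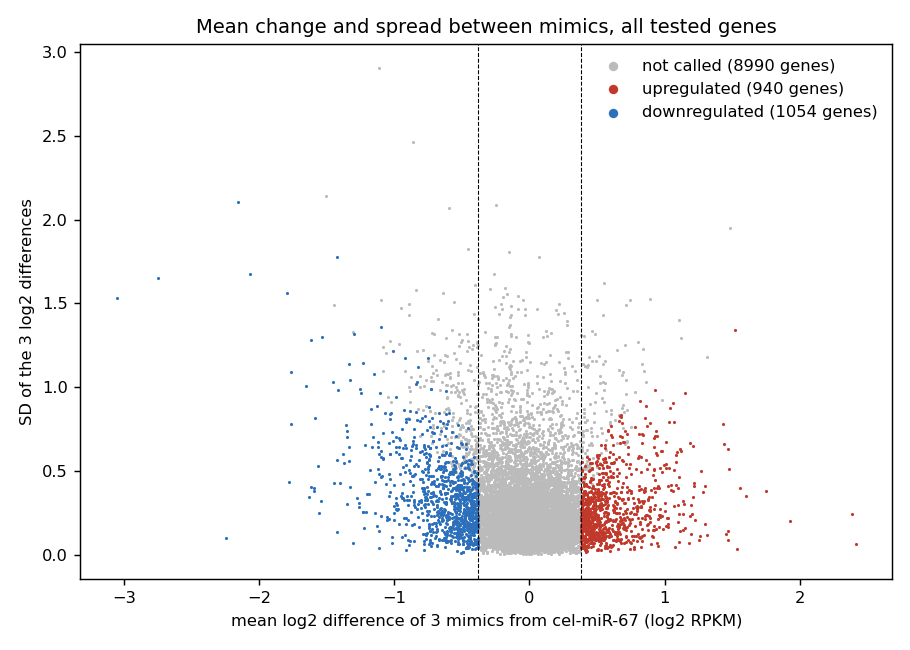
Each point is 1 of the 10984 tested genes, with the mean log2 difference of the 3 mimics from cel-miR-67 on the x axis and the SD of the 3 differences on the y axis, and dashed lines mark the 1.3-fold cutoff. The 940 upregulated and 1054 downregulated genes lie outside the lines, and uncalled genes outside them are those whose control value fell between the mimics.

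Shared rises and falls were ranked by the mimic nearest to the control. Only genes with a unique, non-placeholder symbol and a geometric mean above 5 RPKM over the 4 libraries were ranked. Among these, the gene with the largest shared rise was Inha, the alpha subunit of inhibin, which opposes activin signalling. Inha had 62.4, 47.3 and 63.8 RPKM with the mimics and 11.0 RPKM in the control, and all 3 mimics lay above the control by more than 4-fold. The mean log2 difference was 2.38 ± 0.24 (SD, n = 3 mimics), a 5.22-fold rise, with a counting interval of 2.23 to 2.54. Mrps12, a protein of the small mitochondrial ribosomal subunit, had 19.7, 18.6 and 15.2 RPKM against 4.66 RPKM, with a mean of 1.93 ± 0.20. RefSeq places an uncharacterised gene over Mrps12, and reads of overlapping genes could not be separated. Gas1, a membrane protein named for growth arrest, rose from 2.56 RPKM in the control to 5.75, 10.7 and 5.89 RPKM, with a mean of 1.48 ± 0.51 and the largest value with miR-93.

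The other genes with the largest shared rises included a ceramide synthase, a vesicle GTPase and a 14-3-3 protein. Cers5, which makes ceramide, had 12, 12.3 and 13.8 RPKM with the mimics and 5.28 RPKM in the control, a mean of 1.26 ± 0.11. Rab3d, a small GTPase of secretory vesicles, had 7.07, 7.58 and 9.31 RPKM against 3.39 RPKM, a mean of 1.22 ± 0.21. Ywhah, the eta form of the 14-3-3 adaptor proteins, had 48.6, 49.5 and 80.0 RPKM against 23.5 RPKM, a mean of 1.3 ± 0.41, and stood highest with miR-25. Mageh1, Tstd3, Pnma2 and Limd2 rose by means of 1.47, 1.47, 1.32 and 1.11, each with an SD of at most 0.14. Gm10642 also rose, by 1.3 ± 0.18, from 25 control reads and with a counting interval of 0.70 to 1.89. In each of these genes the mimic nearest to the control was still past 2-fold.

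Among the ranked genes, the largest shared falls included a secreted lectin and proteins of muscle cells. Reg3b, a secreted lectin of the Reg family, had 6.97, 6.09 and 6.58 RPKM with the mimics and 30.9 RPKM in the control, and the 3 mimics lay close together, far below the control. Its mean log2 difference was -2.24 ± 0.10, with a counting interval of -2.43 to -2.06. Hspb6, a small heat shock protein of muscle, fell from 54.3 RPKM to 22.1, 12.4 and 14.5 RPKM, a mean of -1.78 ± 0.43, with the smallest fall under miR-106b. RefSeq places part of Lin37 over Hspb6. Tcap, which caps titin at the Z-disc and is also called telethonin, had 29.6, 15.3 and 30.3 RPKM against 60.4 RPKM, a mean of -1.33 ± 0.56.

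The remaining genes of this group act at the cell surface, in the endoplasmic reticulum and in the matrix. Vldlr, a lipoprotein receptor, had 16.4, 13.3 and 22.5 RPKM with the mimics and 51.3 RPKM in the control, a mean of -1.59 ± 0.38. Aqp1, a water channel, had 70.0, 48.6 and 39.0 RPKM against 139 RPKM, a mean of -1.45 ± 0.43. Ramp1, a partner protein of the receptor for calcitonin gene-related peptide, had 7.36, 8.20 and 5.22 RPKM against 16.5 RPKM, a mean of -1.28 ± 0.34. A direction shared by every mimic is part of the rule for calls, and the order of the mimics differed between these 3 genes. Col15a1, a collagen of the basement membrane zone, had a mean of -1.62 ± 0.40, and Dnajb9, a co-chaperone of the endoplasmic reticulum, one of -1.23 ± 0.16. Clip4, Pon2 and Fam46a had means of -1.54 ± 0.32, -1.12 ± 0.14 and -1.11 ± 0.04. Each of the genes named among these largest rises and falls kept its call without any 1 mimic and under the scaling to the same sum. They were chosen because even the mimic nearest to the control lay far from it, so keeping the call follows from the choice.

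**Figure D2:**
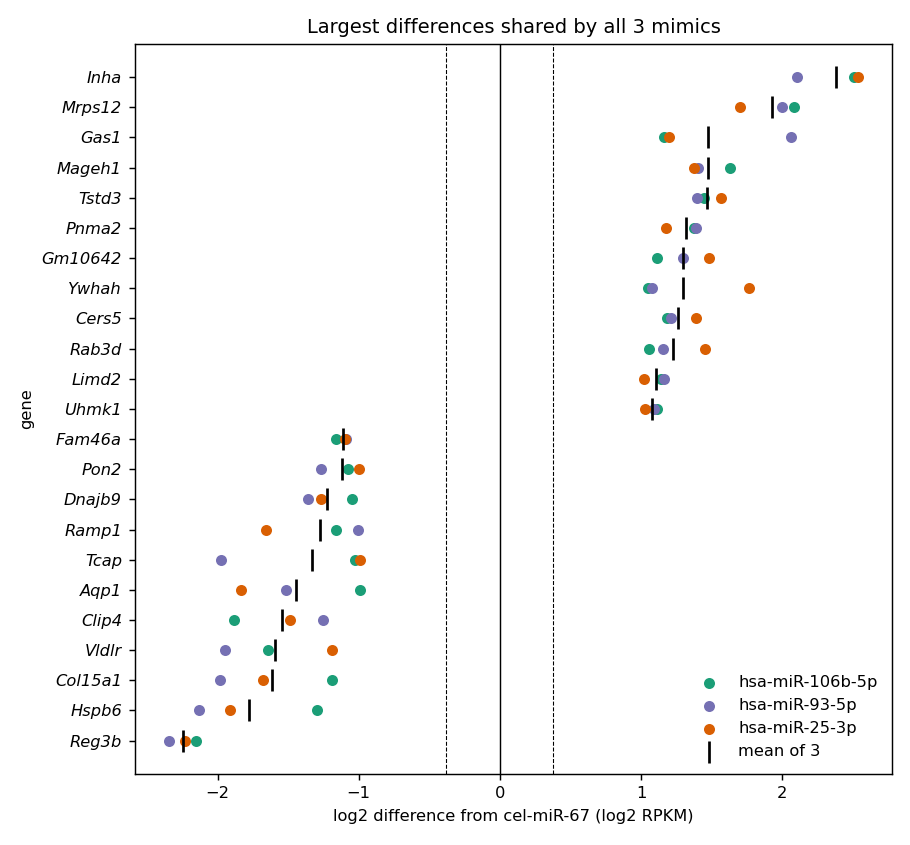
Log2 difference from cel-miR-67 (x axis) of the named upregulated and downregulated genes in which the mimic nearest to the control differed most, with 1 coloured point per mimic library and a bar at the mean. Every point lies beyond the dashed 1.3-fold lines, and for Inha and Reg3b the 3 points stand farthest from 0.

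In some genes the 3 mimics gave nearly the same level. Uhmk1, a kinase with a splicing-factor domain, had 22.1, 21.7 and 20.8 RPKM with the mimics and 10.2 RPKM in the control, a mean of 1.08 ± 0.04. Hmga1, a chromatin protein that bends DNA, had 63.8, 61.2 and 65.6 RPKM against 32.8 RPKM, a mean of 0.95 ± 0.05. Zcchc3, As3mt, Sccpdh and Vwa8 rose by means between 0.60 and 0.82, each with an SD of 0.05. Downward, Fam46a, a poly(A) polymerase, had 6.45, 6.76 and 6.73 RPKM against 14.4 RPKM, a mean of -1.11 ± 0.04. Tspan12, a tetraspanin of the cell membrane, had 39.9, 38.4 and 39.0 RPKM against 67 RPKM, a mean of -0.78 ± 0.03. Arfgap1, a regulator of vesicle coats, had a mean of -0.91 ± 0.03, and Smyd5, Emilin1 and Col5a2 had means of -0.68 ± 0.06, -0.63 ± 0.04 and -0.73 ± 0.05. These 12 genes were chosen for a small SD among genes past 1.5-fold, so the SD itself is a description.

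**Figure D3:**
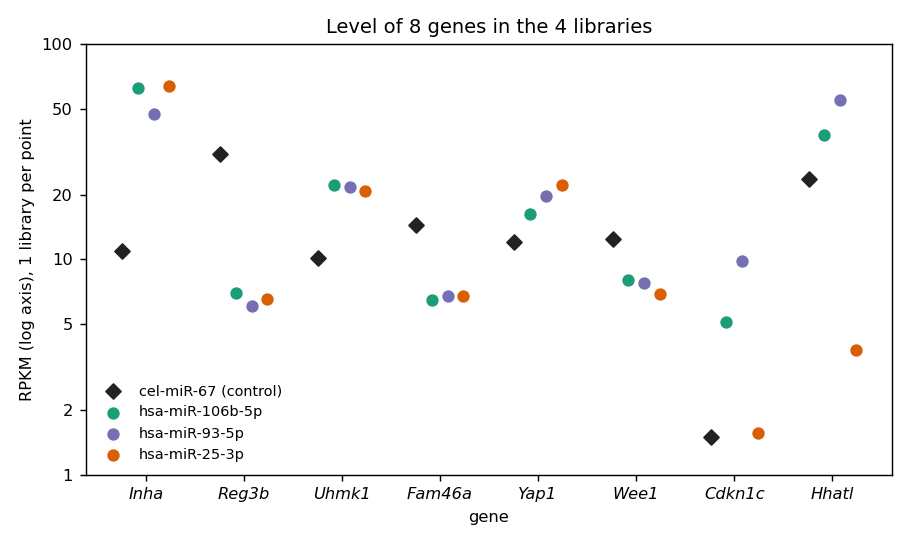
RPKM on a log axis of 8 genes in the 4 libraries, with a diamond for the control and circles for the mimics, 1 library per point. The mimics lie together on 1 side of the control in the first 6 genes, whereas in Cdkn1c the miR-25 library lies beside the control and in Hhatl it lies on the other side.

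Markers of the cell types in the cultures moved with the comparison. The counts in this and the following lists stand beside shares of 8.56% upregulated and 9.6% downregulated over all tested genes. A list with shares near these, such as sterol and fatty acid synthesis genes at 7.14% and 10.7%, is not set apart by its calls. Of 19 tested cardiomyocyte markers, 8 fell and 1 rose, and the median of their mean log2 differences was -0.45, beside -0.02 over all tested genes. Their summed RPKM was 22379, 17333 and 14399.9 with the mimics and 25319 in the control. The medians by mimic were -0.05, -0.25 and -0.91, so the list's value rested mainly on miR-25, and without miR-25 the median was -0.15. With all libraries scaled to the same sum the median was -0.31, with 5 markers down. Ryr2, the calcium release channel, had 54.7, 57.4 and 35.9 RPKM with the mimics and 88.0 RPKM in the control, a mean of -0.86 ± 0.37. Csrp3, the muscle LIM protein of the Z-disc, had 352, 161 and 233 RPKM against 437 RPKM, a mean of -0.89 ± 0.57. The marker that rose was Nkx2-5, a cardiac transcription factor, with 36.7, 42.1 and 53.7 RPKM against 29.2 RPKM and a mean of 0.58 ± 0.28. In bulk RNA fewer cardiomyocytes and less RNA per cardiomyocyte cannot be told apart.

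Fibroblast markers moved in the same direction as those of cardiomyocytes. Of 15 tested, 9 fell and 0 rose, with a median of -0.56 and a summed RPKM of 1739.6, 1715 and 1179 with the mimics against 2106 in the control. Postn, the matrix protein periostin, had 47.8, 68.4 and 43.1 RPKM with the mimics and 107 RPKM in the control, a mean of -1.04 ± 0.35. Dcn, the proteoglycan decorin, had 6.28, 5.80 and 9.30 RPKM against 16.0 RPKM, a mean of -1.20 ± 0.36. S100a4, a calcium-binding protein, had 458, 259 and 137 RPKM against 572 RPKM, a mean of -1.17 ± 0.87, and without miR-25 its mean was -0.73. The list's medians by mimic were -0.34, -0.21 and -0.79. Without miR-25 the median was -0.23 with 6 markers down, and under the scaling to the same sum it was -0.42.

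Markers of the mesothelium and epicardium, the sheets that cover the heart, were the marker list with the highest median. Of 8 tested, 4 rose and 0 fell, with a median of 0.39 and a summed RPKM of 54.7, 58.5 and 76.6 with the mimics against 46.3 in the control. Upk1b and Upk3b, uroplakins of the mesothelium, had 5.46, 4.41 and 7.65 RPKM and 5.91, 7.30 and 15 RPKM with the mimics and 2.93 and 4.49 RPKM in the control. Their means were 0.96 ± 0.40 and 0.95 ± 0.71, and miR-25 was highest in both. Without miR-25 the mean of Upk3b was 0.55, and that of Krt18, a keratin, went from 0.57 ± 0.55 to 0.28 and was no longer called. The list's median was 0.31 without miR-25 with 2 markers up, and 0.53 under the scaling to the same sum.

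The other marker lists were small or mixed. Of 7 tested atrial markers, 2 rose and 2 fell, with a median of -0.14 and an average of 0.28, and a summed RPKM of 2002, 629.8 and 4561 with the mimics against 2012 in the control. Myl4, the atrial myosin light chain, had 262, 149.8 and 90.2 RPKM against 83.2 RPKM, a mean of 0.87 ± 0.77 that went to 0.48 without miR-106b. RefSeq places Cdc27 over Myl4. Stard10, a lipid transfer protein, had 2.26, 3.16 and 4.51 RPKM against 1.32 RPKM, a mean of 1.27 ± 0.50. Of 5 tested endothelial markers, 1 rose and 2 fell, with summed RPKM between 22.0 and 24.1 with the mimics and 28.8 in the control. Egfl7, which endothelial cells secrete, had 2.01, 1.48 and 1.71 RPKM against 3.27 RPKM, and Kdr, a receptor of vascular growth factors, had 1.73, 2.18 and 2.29 RPKM against 1.26 RPKM. Their means were -0.93 ± 0.22 and 0.70 ± 0.22. In smooth muscle markers 0 of 10 rose and 1 fell, 4 without miR-25, and their summed RPKM was 1313, 1095 and 3207 with the mimics against 1622. The marker that fell was Synpo2, an actin-binding protein, with 11.6, 7.07 and 16.2 RPKM against 22.5 RPKM and a mean of -1.03 ± 0.60. Of 6 macrophage and leukocyte markers 1 fell, the lysozyme gene Lyz2 with a mean of -0.74 ± 0.59. Under the scaling to the same sum none did, and the summed RPKM of these markers was 29.6, 32.7 and 20.4 against 30.5. Of 4 red cell markers none was called, with a summed RPKM of 12.6, 15.3 and 7.77 against 9.0. The part of shifts in cell types in the results that follow was not tested.

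Sarcomere genes, which build the contractile unit of muscle, fell in many members. Of 31 tested, 15 fell and 0 rose, with a median of -0.45. The 15 included Z-disc proteins such as Actn2, Tcap, Csrp3 and Xirp2, and the myosin heavy chains Myh6 and Myh7 were at -0.45 ± 0.52 and -0.25 ± 0.35 and were not called. Lmod2, which sets the length of thin filaments, had 117, 52.0 and 78.3 RPKM with the mimics and 167 RPKM in the control, a mean of -1.10 ± 0.59. Actn2, Lmod2 and Tnnc1 are named although they fall outside the rule for named genes, and were chosen after their values were seen. Myh6, Myh7 and the markers Tnnt2 and Actc1 given above also fall outside that rule. Tnnc1, cardiac troponin C, had 1847, 1504 and 1172 RPKM against 2579.7 RPKM, a mean of -0.80 ± 0.33. Myom2, an M-band protein, had 13.4, 23.8 and 2.94 RPKM against 34 RPKM, a mean of -1.80 ± 1.56 that was -0.93 without miR-25. Xirp2, an actin-binding repeat protein of the Z-disc and intercalated disc, had 20.6, 2.82 and 48.7 RPKM against 63.0 RPKM, a mean of -2.16 ± 2.11 that was -0.99 without miR-93. In both genes 1 mimic carried most of the mean. The list's medians by mimic were -0.21, -0.33 and -0.66, and without miR-25 the median was -0.23 with 12 members down. Under the scaling to the same sum it was -0.31 with 10 down. The sarcomere and cardiomyocyte lists share members, so they are not separate results, and the summed RPKM of the cardiomyocyte markers moved with this list.

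Genes of calcium handling were called in both directions, and those of the response to stretch downward. Of 25 tested calcium handling genes 4 rose and 5 fell, 16% and 20% beside 8.56% and 9.6% over all tested genes, with a median of -0.10. Under the scaling to the same sum 3 fell, and without miR-25, 2 rose. Casq2, the calcium buffer of the sarcoplasmic reticulum, had 445, 301 and 302 RPKM with the mimics and 636 RPKM in the control, a mean of -0.89 ± 0.32. Cacna2d1, a subunit of the L-type calcium channel, had 23.5, 14.9 and 14.0 RPKM against 27.2 RPKM, a mean of -0.68 ± 0.41. Sri, the calcium-binding protein sorcin, rose from 29.6 RPKM to 40.0, 42.3 and 59.1 RPKM, a mean of 0.65 ± 0.30. Of 18 hypertrophy and stretch markers 0 rose and 5 fell, with a median of -0.22. Under the scaling to the same sum the median was -0.08 with 1 up and 4 down, and without miR-25, 2 were up and 8 down. Their summed RPKM was 6283, 2957 and 9180.2 with the mimics, highest with miR-25, and 7912 in the control. Ankrd1, a stretch-responsive protein of muscle, had 1736, 871 and 1976 RPKM against 2753 RPKM, a mean of -0.94 ± 0.64, and Rcan1, a calcineurin inhibitor, had 75.8, 31.4 and 122 RPKM against 158 RPKM, a mean of -1.25 ± 0.99. Both were lowest with miR-93, and without it the means were -0.57 and -0.72. Mef2d, a transcription factor of muscle, had 4.50, 5.14 and 4.67 RPKM against 6.46 RPKM, a mean of -0.44 ± 0.10 that was not called under the scaling to the same sum, at -0.30. Hand2, another cardiac transcription factor, had 58.2, 66.0 and 23.4 RPKM against 44.9 RPKM, with log2 differences of 0.37, 0.56 and -0.94, and was not called.

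Collagens are the main fibre and sheet proteins of the matrix. Of 19 tested, 10 fell and 1 rose, with a median of -0.38. Col5a2, a chain of fibrillar collagen V, had 116, 116 and 109 RPKM with the mimics and 188 RPKM in the control, a mean of -0.73 ± 0.05. Col5a3, another chain of collagen V, had 6.80, 5.09 and 5.78 RPKM against 9.87 RPKM, a mean of -0.76 ± 0.21, and Col6a2, of microfibrillar collagen VI, had 37.6, 37.7 and 25.4 RPKM against 56.3 RPKM, a mean of -0.77 ± 0.33. The member that rose was Col16a1, a fibril-associated collagen, with 12.1, 11.2 and 14.6 RPKM against 6.77 RPKM and a mean of 0.89 ± 0.20. The medians by mimic were -0.33, -0.41 and -0.64, and under the scaling to the same sum the list's median was -0.24 with 6 members down. The summed RPKM of the fibroblast markers, some of which are collagens, moved with this list.

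Integrins, the receptors that tie cells to the matrix, fell in 5 and rose in 1 of 15 tested genes, with a median of -0.34. Itga5, the alpha subunit of a fibronectin receptor, had 33.0, 20.5 and 14.4 RPKM with the mimics and 46.3 RPKM in the control, a mean of -1.12 ± 0.60. Itga9 had 16.4, 14.4 and 31.2 RPKM against 39.8 RPKM, a mean of -1.03 ± 0.60, and Itgb8, a partner of the alpha v subunit, had 1.74, 2.53 and 1.77 RPKM against 3.33 RPKM, a mean of -0.75 ± 0.30. Itga3, the alpha subunit of a laminin receptor, went the other way, from 6.56 RPKM to 10.1, 11.1 and 15.5 RPKM, a mean of 0.87 ± 0.33. Matrix proteases, their inhibitors and crosslinking enzymes were called 2 up and 3 down of 29, with a median of -0.15. Without miR-25, 0 were up and 8 down, and under the scaling to the same sum the median was close to 0 with 0 down. Adam10, a membrane protease, had a mean of -0.83 ± 1.03, but without miR-25 its mean was -0.24 and it was not called. Among 38 actin cytoskeleton regulators 2 rose and 3 fell, with a median of -0.11. Without miR-25, 7 fell, and under the scaling to the same sum 4 rose and 1 fell. Cfl2, the cofilin of muscle, which severs actin filaments, had 84.6, 46.7 and 132 RPKM against 155 RPKM, a mean of -0.95 ± 0.75 that was -0.55 without miR-93 and was not called under the scaling to the same sum. Enah, an actin filament elongation factor, had 37.7, 14.3 and 89.1 RPKM against 89.3 RPKM, so that the miR-25 library lay beside the control. Its mean of -1.3 ± 1.32 was -0.63 without miR-93, and it was not called under that scaling.

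Chaperones of the endoplasmic reticulum were lower in several members, while calnexin was higher. Of 30 tested genes of the unfolded protein response and the ATF4 pathway, 10 fell and 1 rose, with a median of -0.17. Besides Dnajb9, with 17.5, 14.1 and 15 RPKM with the mimics and 36.2 RPKM in the control, and Vldlr, the members that fell were Hspa5, Hsp90b1, Xbp1, Herpud1, Pdia4, Calr, Hyou1 and Atf3. The means of the 10 ran from -0.41 for Hsp90b1 to -1.59 for Vldlr, and that of Atf3, a stress-induced transcription factor, was -0.96 with all mimics and -0.63 without miR-93. Hspa5, the chaperone BiP, had 496, 412 and 336 RPKM against 585 RPKM, a mean of -0.51 ± 0.28. Without miR-25 the means of Hspa5 and Hsp90b1 were -0.37 and -0.27 and neither was called. Canx, the lectin chaperone calnexin, had 157, 138 and 173 RPKM against 80.2 RPKM, a mean of 0.96 ± 0.17 in the opposite direction to Calr, its soluble relative calreticulin, with 365, 311 and 286 RPKM against 463 RPKM and a mean of -0.54 ± 0.18. Hspa5, Hsp90b1, Xbp1, Herpud1, Pdia4, Calr and Hyou1 fall outside the rule for named genes and were named after their values were seen. Of this list 5 members were down under the scaling to the same sum, and the median without miR-25 was 0.02.

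Of 17 tested heat shock genes 0 rose and 3 fell, with a median of 0.10 and an average of -0.09. The 3 that fell are small chaperones of muscle and their partner. Hspb8 had 43.7, 22.1 and 30.5 RPKM with the mimics and 53.2 RPKM in the control, and Bag3, its co-chaperone at the Z-disc, had 4.75, 3.73 and 3.15 RPKM against 6.91 RPKM. Their means were -0.79 ± 0.49 and -0.85 ± 0.30. Cryab, alpha B-crystallin, had 745, 404 and 589 RPKM against 879.6 RPKM, a mean of -0.65 ± 0.45 that was -0.41 without miR-93, and RefSeq places Hspb2 over it. Of 28 antioxidant enzymes and Nrf2 targets 2 rose and 4 fell, with a median of -0.07. Under the scaling to the same sum the median was 0.07 with 3 up and 2 down, and without any 1 mimic 3 fell. Gpx3, a secreted glutathione peroxidase, had 50.2, 36.3 and 58.4 RPKM against 91.8 RPKM, a mean of -0.95 ± 0.35, and Sod3, the extracellular superoxide dismutase, had 1.24, 1.19 and 2.02 RPKM against 3.01 RPKM, a mean of -1.07 ± 0.42. Both of these enzymes are secreted from cells.

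Targets of p53, the transcription factor that answers DNA damage, were higher in many members. Of 22 tested, 9 rose and 2 fell, with a median of 0.38. Zmat3, a p53-induced RNA-binding protein, had 5.89, 5.36 and 14.9 RPKM with the mimics and 4.30 RPKM in the control, a mean of 0.86 ± 0.81. Tp53inp1 had 28.9, 31.0 and 74.3 RPKM against 23.5 RPKM and Fas, a death receptor, 2.00, 2.67 and 4.80 RPKM against 1.78 RPKM. In all 3 genes the miR-25 library was the highest and the other two lay nearer the control. Without miR-25 the means of Zmat3, Tp53inp1 and Fas were 0.39, 0.35 and 0.38, and those of Tp53inp1 and Fas were not called. The list's medians by mimic were 0.28, 0.16 and 0.82, and without miR-25 the median was 0.21 with 4 members up. Under the scaling to the same sum the median was 0.53 with 16 members up. The 2 members that fell were Plk2, a kinase, with 120.4, 63.9 and 72.3 RPKM against 178 RPKM and a mean of -1.12 ± 0.48, and Btg2, an antiproliferative protein, with 29.2, 18.2 and 17.6 RPKM against 34 RPKM and a mean of -0.69 ± 0.41.

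In the BCL2 family, which controls the mitochondrial step of cell death, 3 of 16 genes rose and 2 fell, with a median of 0.09. Without miR-93, 5 rose, as did 5 under the scaling to the same sum. Bnip3l, a mitophagy receptor, had 12.8, 12 and 17.7 RPKM with the mimics and 9.10 RPKM in the control, a mean of 0.62 ± 0.30. Bok, a pore-forming member, had 30.2, 20.5 and 24.7 RPKM against 36.2 RPKM, a mean of -0.54 ± 0.28. The p53 targets Bax and Pmaip1 had means of 0.46 ± 0.51 and 0.56 ± 0.66, and Bak1, a pore-forming relative of Bax, had a mean of -0.61 ± 0.84. These 3 calls rested on miR-25, without which the means were 0.18, 0.19 and -0.13.

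Of 26 brakes and checkpoint genes of the cell cycle 4 were called up and 5 down, 15.4% and 19.2%, with a median of -0.03. Over all tested genes the shares were 8.56% and 9.6%. Wee1, the kinase that holds cells before mitosis, had 8.01, 7.78 and 6.89 RPKM with the mimics and 12.5 RPKM in the control, a mean of -0.73 ± 0.11. Rbl1, the pocket protein p107, had 4.55, 4.95 and 4.82 RPKM against 6.87 RPKM, a mean of -0.52 ± 0.06. Gadd45a, a stress-induced checkpoint protein, had 23.3, 17.3 and 17.9 RPKM against 30.4 RPKM, a mean of -0.65 ± 0.24, and its relative Gadd45g had 41.5, 17.2 and 41.9 RPKM against 79.1 RPKM, a mean of -1.35 ± 0.74. In these 4 genes the control lay above all 3 mimics, which the rule for calls requires. Cdkn1c, the gene of p57, had 5.13, 9.86 and 1.57 RPKM against 1.5 RPKM, a mean of 1.52 ± 1.34 that was 0.92 without miR-93, and the miR-25 library lay beside the control. Cdkn1a, the gene of p21, had 9.90, 7.02 and 31.5 RPKM against 9.61 RPKM and was not called, since the mimics lay on both sides of the control. Rb1, the retinoblastoma gene, had a mean of 0.41 ± 0.46 that was 0.15 without miR-25, where it was not called. Ccng1 and Ccng2, cyclin-like p53 and FoxO targets, had means of 0.60 ± 0.50 and 0.66 ± 0.58, and 0.31 and 0.36 without miR-25, where they were not called. E2f5, a transcription factor that works with pocket proteins, had 5.93, 6.17 and 7.27 RPKM against 6.44 RPKM, a mean close to 0 with an SD of 0.16, and was not called.

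In the cell cycle machinery the mean hid opposite differences. Of 47 G2 and M phase genes 1 rose and 1 fell, with a median of -0.01 and an average of 0.05, but the medians by mimic were 0.71, 0.38 and -0.94. Without miR-25, 35 of these genes would be called upregulated. Of 41 S phase genes 2 rose and 6 fell, with a median of -0.28 and medians by mimic of 0.19, 0.0035 and -1.01. Of these, 19 would be called down without miR-106b and 1 without miR-25, where 6 would be called up. Gtse1, a mitotic protein, rose with every mimic, at 13.9, 10.5 and 14.4 RPKM against 7.65 RPKM, a mean of 0.74 ± 0.25. Tyms, which makes thymidylate for DNA synthesis, also did, at 32.8, 36.5 and 39.5 RPKM against 25.3 RPKM, a mean of 0.52 ± 0.14. Mcm3, a helicase subunit, fell with every mimic, at 16.6, 13.9 and 8.18 RPKM against 22.0 RPKM, a mean of -0.83 ± 0.53 that was -0.53 without miR-25. Mcm7, the host gene of the cluster, had 23.4, 19.1 and 9.87 RPKM against 23.2 RPKM and was not called, with log2 differences of 0.01, -0.28 and -1.23.

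Among 17 cyclins and cyclin-dependent kinases 0 rose and 2 fell, with a median of -0.09, and without miR-25, 3 rose. Ccne2, the gene of cyclin E2, had 9.08, 8.39 and 7.02 RPKM with the mimics and 13.2 RPKM in the control, a mean of -0.71 ± 0.19. Its relative Ccne1 had 4.61, 4.76 and 3.29 RPKM against 5.21 RPKM, a mean of -0.33 ± 0.30, and was not called. The control lay above the 3 mimics in both genes, but the mean of Ccne1 was inside the cutoff. Ccnh, which activates cyclin-dependent kinases, had a mean of -0.50 ± 0.58 that was -0.16 without miR-25, where it was not called.

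Published targets of the 2 seed families were called mostly downward for the first family and evenly for the second. The lists were drawn up from earlier work and not from sites in these transcripts. They were also written with earlier results of these data known. Of 38 tested targets of the miR-17 family, to which miR-106b and miR-93 belong, 10 fell and 2 rose, with a median of -0.13 and medians by mimic of -0.42, -0.30 and 0.17. Under the scaling to the same sum the list's median was 0.01, with 9 members down and 4 up, and without miR-25 it was -0.33 with 17 down. Besides Wee1, Rbl1 and Dnajb9 described above, E2f1, the activating E2F factor, had 2.02, 2.45 and 1.38 RPKM with the mimics and 3.63 RPKM in the control, a mean of -0.94 ± 0.42. Kat2b, a histone acetyltransferase, had 11.0, 11.2 and 7.33 RPKM against 16.5 RPKM, a mean of -0.77 ± 0.35. Of 29 targets of the family of miR-25 and miR-92 5 rose and 5 fell, with a median of -0.12 and medians by mimic of 0.02, 0.15 and -0.47. Dsc2, a desmosomal cadherin, had 3.79, 1.55 and 2.65 RPKM against 4.2 RPKM, a mean of -0.75 ± 0.65 that was -0.41 without miR-93. In each list the family's own mimics had the lower medians, which is a description only because of how the lists were written.

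In the Hippo pathway a kinase cascade restrains the cofactors YAP and TAZ. Of 16 kinase cascade genes 2 rose and 0 fell, with a median of 0.03. The 12.5% that rose stand beside 8.56% over all tested genes. Without miR-93, 4 rose, without miR-25, 2 fell, and under the scaling to the same sum 5 rose. Wwc1, the scaffold KIBRA, had 1.64, 2.08 and 2.92 RPKM with the mimics and 1.04 RPKM in the control, a mean of 1.05 ± 0.42, and Map4k4, an upstream kinase, had 25.5, 26.7 and 30.7 RPKM against 19.1 RPKM, a mean of 0.53 ± 0.14. Of 26 YAP, TAZ and TEAD factors and their targets 3 rose and 4 fell, with a median of -0.01, while under the scaling to the same sum 4 rose and 1 fell, and without miR-93, 2 fell. Yap1 had 16.3, 19.7 and 22.2 RPKM against 12.1 RPKM, a mean of 0.67 ± 0.22, and its partner Tead2 had 9.39, 10.5 and 8.86 RPKM against 6.15 RPKM, a mean of 0.64 ± 0.12. The means over the 3 mimics of the targets Ankrd1 and Ctgf, which encodes a matricellular growth factor, were -0.94 ± 0.64 and -0.44 ± 0.44. Without miR-93 they were -0.57 and -0.19, and Ctgf was not called. Under the scaling to the same sum Ctgf was not called either.

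In the TGF-beta and activin pathway 1 of 28 genes rose, Inha, and 6 fell, with a median of -0.10. The medians by mimic were -0.26, -0.32 and 0.24, so miR-25 lay on the opposite side from the other mimics. Under the scaling to the same sum the list's median was 0.04 with 2 up and 4 down, and without miR-93, 3 rose and 6 fell. Inhba, the activin beta A subunit, with which the inhibin alpha subunit can pair, had 14.4, 7.84 and 12.1 RPKM with the mimics and 17.9 RPKM in the control, a mean of -0.69 ± 0.45 that was -0.44 without miR-93. Inha at 62.4, 47.3 and 63.8 RPKM was above Inhba in every mimic library and below it in the control, where Inha had 11.0 RPKM. Tgfbi, a matrix protein induced by TGF-beta, had 5.58, 3.89 and 9.48 RPKM against 13.3 RPKM, a mean of -1.17 ± 0.65. Of 16 BMP pathway genes 1 rose and 1 fell, 6.25% each way beside 8.56% and 9.6% over all tested genes, with a median of 0.02. Without miR-106b or without miR-93, 3 rose, and without miR-25, 3 fell. Bmp4, a ligand, fell from 4.32 RPKM to 2.33, 3.54 and 2.22 RPKM, a mean of -0.71 ± 0.37. Id1, an inhibitor of differentiation factors, had a mean of 0.65 ± 0.47 but was not called without miR-25, where its mean was just inside the cutoff.

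Growth factor, Wnt and Notch signalling genes form the next lists. Of 28 genes of the PI3K, AKT and insulin-like growth factor pathway 4 rose and 6 fell, with a median of -0.08. Pik3ca and Pik3r1, the catalytic and regulatory subunits of PI3K, had 22.1, 17.5 and 22.6 RPKM and 7.51, 8.33 and 8.33 RPKM with the mimics and 31.4 and 13.4 RPKM in the control, with means of -0.61 ± 0.21 and -0.74 ± 0.09. Mtor, a kinase downstream, lay above the control, with 10.2, 8.87 and 10.6 RPKM against 6.74 RPKM and a mean of 0.55 ± 0.13. Igfbp3, a binding protein of insulin-like growth factors, had a mean of 1.01 ± 0.54 and its relative Igfbp6 one of -0.74 ± 0.06. Of 12 Wnt antagonists, receptors and readout genes 1 rose and 3 fell, with a median of -0.14, and without miR-25, 5 fell. Fzd7, a Wnt receptor, had 2.87, 2.25 and 2.49 RPKM against 4.61 RPKM, a mean of -0.87 ± 0.18, and Nkd2, a Wnt antagonist, 3.23, 3.44 and 2.11 RPKM against 4.94 RPKM, a mean of -0.79 ± 0.38. Of 10 Notch pathway genes 1 rose and 0 fell, with a median of 0.09. The gene that rose, Hes1, had a mean of 0.44 ± 0.22 with all mimics and 0.31 without miR-25, where it was not called.

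Immediate early genes, the fast transcriptional responders, rose in 3 and fell in 6 of 17, with a median of -0.11. Jund, an AP-1 subunit, had 20.7, 15.9 and 20.6 RPKM with the mimics and 11.3 RPKM in the control, a mean of 0.74 ± 0.22. Zfp36, which destabilises cytokine messengers, had 3.99, 4.25 and 4.80 RPKM against 7.01 RPKM, a mean of -0.69 ± 0.13. Atf3, which also counts among the ATF4 pathway genes, had 4.31, 1.67 and 2.55 RPKM against 5.11 RPKM, a mean of -0.96 ± 0.68 that was -0.63 without miR-93. Interferon response genes, a readout of innate sensing of foreign RNA, rose in 1 and fell in 2 of 20, with a median close to 0 and medians by mimic of 0.22, 0.12 and -0.39. Without miR-25 the median was 0.19 and 6 members rose. Ifit2, an interferon-induced antiviral protein, had 3.87, 3.94 and 2.35 RPKM against 5.47 RPKM, a mean of -0.73 ± 0.42 that was -0.49 without miR-25. Of 12 inflammatory cytokines and chemokines 1 rose and 1 fell, with a median of -0.15. Without miR-106b, 3 rose, and without miR-93, 3 fell. Il1rl1, the receptor of interleukin 33, had 30.2, 17.1 and 64.6 RPKM against 14.5 RPKM, a mean of 1.15 ± 0.96 that was 0.65 without miR-25, and Csf1, a macrophage growth factor, had a mean of -0.53 ± 0.42 and was not called under the scaling to the same sum.

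Nuclear genes of the respiratory chain fell in 11 and rose in 0 of 43, with a median of -0.28, and without miR-25 the median was close to 0 with 2 genes down. Without miR-106b, 18 fell, and under the scaling to the same sum 5 did. Cox6a2, the heart and muscle form of a cytochrome oxidase subunit, had 324, 248 and 88.8 RPKM with the mimics and 515 RPKM in the control, a mean of -1.42 ± 0.98 that was -0.86 without miR-25. Of 36 fatty acid oxidation and citric acid cycle genes 3 rose and 5 fell, with a median of -0.09. Without miR-106b, 9 fell and without miR-93, 8, while without miR-25, 5 rose and 3 fell. Acadvl and Acadl, acyl-CoA dehydrogenases for long chains, had 33.8, 36.8 and 37.3 RPKM and 23.2, 17.5 and 23.5 RPKM against 55.2 and 33.9 RPKM, with means of -0.62 ± 0.08 and -0.68 ± 0.24. Cd36, a fatty acid carrier, had 23.1, 20.6 and 25.3 RPKM against 35.8 RPKM, a mean of -0.64 ± 0.15. Slc27a1, another fatty acid transporter, and Ppargc1a, the coactivator PGC-1 alpha, rose, with 2.39, 3.08 and 2.84 RPKM against 1.36 RPKM and 8.67, 9.26 and 10.4 RPKM against 6.27 RPKM. Their means were 1.02 ± 0.19 and 0.59 ± 0.13.

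Of 33 glycolysis and hypoxia genes 2 rose and 5 fell, with a median of -0.13. These are 6.06% and 15.2% beside 8.56% and 9.6% over all tested genes. Without miR-25, 7 rose, and under the scaling to the same sum 4 rose and 2 fell. Hk2, a hexokinase, had 8.61, 7.70 and 7.80 RPKM with the mimics and 5.56 RPKM in the control, a mean of 0.53 ± 0.09, and Slc16a3, the lactate exporter MCT4, had 32.3, 27.8 and 25.7 RPKM against 18.0 RPKM, a mean of 0.66 ± 0.17. Pfkp, a phosphofructokinase, went down, with 119, 67.3 and 117 RPKM against 178 RPKM and a mean of -0.87 ± 0.47. Of 28 sterol and fatty acid synthesis genes 2 rose and 3 fell, with a median of -0.04. Scd2, a fatty acid desaturase, had 139, 113 and 166 RPKM against 77.5 RPKM, a mean of 0.83 ± 0.28. Idi1, an enzyme of isoprenoid synthesis, had 20.4, 12.9 and 14.6 RPKM against 24.1 RPKM, a mean of -0.62 ± 0.34, and RefSeq places Wdr37 over it.

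**Figure D4:**
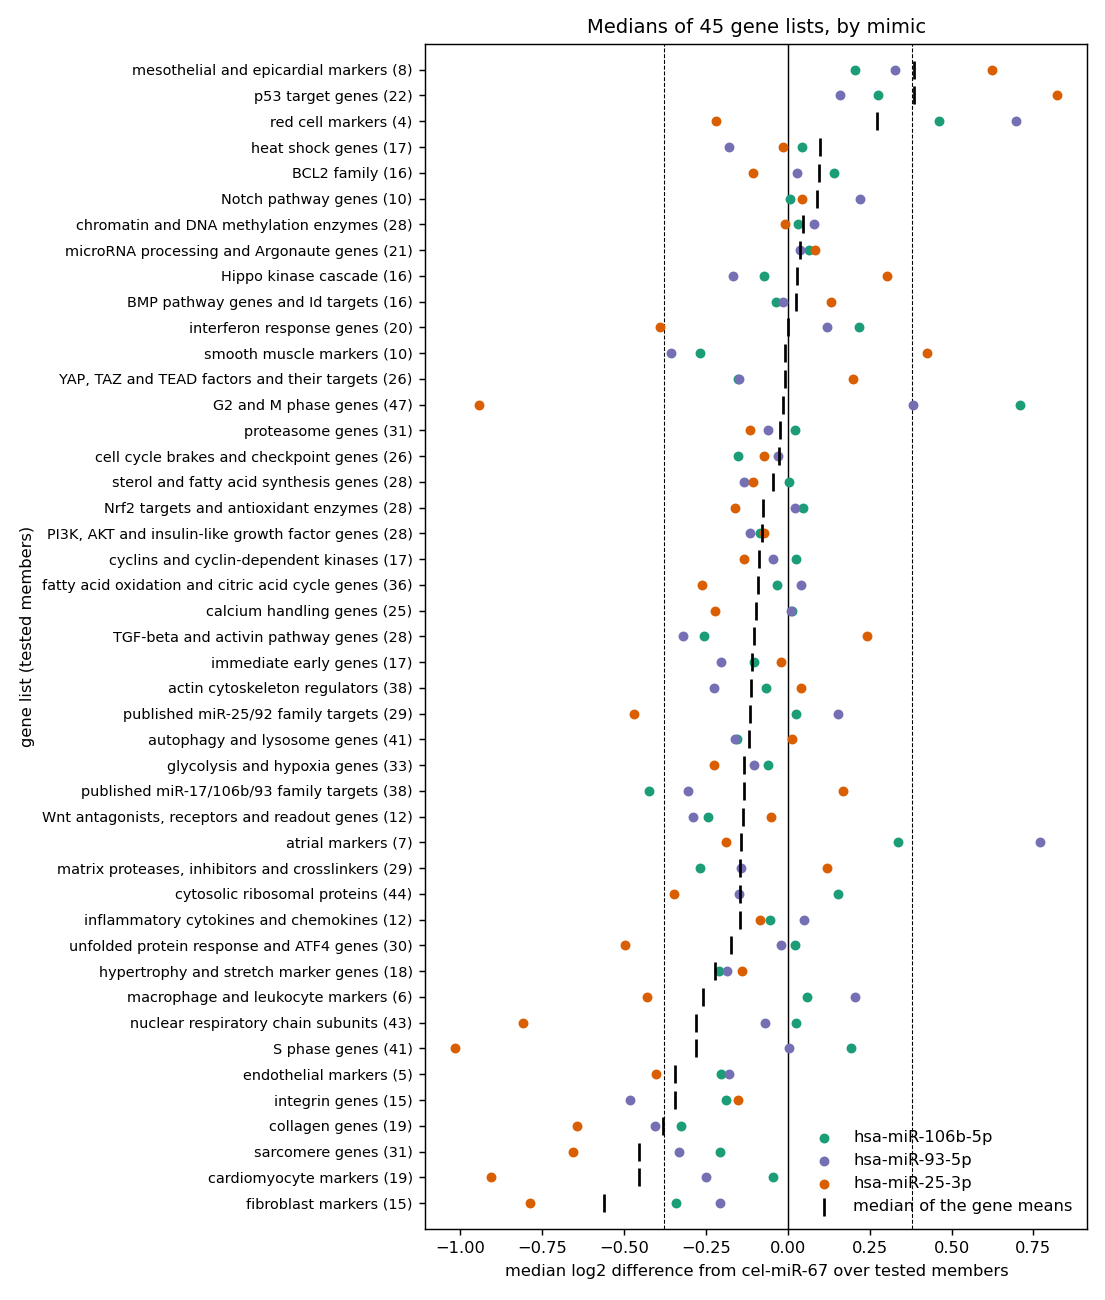
Median log2 difference from cel-miR-67 (x axis) over the tested members of 45 gene lists (y axis, number of tested members in brackets), with 1 coloured point per mimic library and a bar at the median of the gene means. The dashed lines mark 1.3-fold, and in the G2 and M phase genes the points of miR-106b and miR-93 lie at 0.71 and 0.38 while that of miR-25 lies at -0.94.

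For 8551 genes the mean lay within 1.3-fold of the control, and in 210 of them each mimic was past 1.3-fold, with miR-25 on the opposite side from the other two. In 113 of these genes miR-25 was the lower and in 97 the higher. Among genes with a mean within 1.3-fold and a geometric mean above 5 RPKM, the one with the largest SD was Hhatl, an acyltransferase-like protein of the endoplasmic reticulum of muscle, with 37.8, 55.1 and 3.79 RPKM with the mimics and 23.7 RPKM in the control. Its log2 differences were 0.67, 1.22 and -2.64, and the mean was -0.25. Irx4, a transcription factor of the ventricle, had 13.1, 17.2 and 2.46 RPKM against 8.47 RPKM, and Kif2c, a kinesin that dismantles microtubules in mitosis, had 10.2, 8.10 and 1.42 RPKM against 5.49 RPKM. Fxyd2, a regulator of the sodium pump, had 9.51, 12.8 and 1.28 RPKM against 5.98 RPKM. In all 4 genes miR-25 lay below the control and the other two above it. Ptgis, prostacyclin synthase, was the reverse, with 12.7, 5.75 and 56.4 RPKM against 19.3 RPKM. The histone genes Hist1h3a, Hist1h2ao and Hist1h2bb had means between -0.29 and -0.18, with SDs of at least 1.54. Histone genes have near-identical copies, so how their reads were shared is uncertain.

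The called genes are described here by their length and level. The level is made from the same RPKM values as the rule, so it is a description only. Lengths were recovered from the RPKM steps with the reads and are too low for some genes. Upregulated genes were shorter and less expressed than all tested genes, with a median length of 1976 bases and a median level (geometric mean over the 4 libraries) of 5.74 RPKM, against 2317 bases and 8.59 RPKM over all. Downregulated genes had medians of 2280 bases and 8.58 RPKM. Over 5 equal bins of expression level, the share upregulated went from 12.9% in the lowest to 4.14% in the highest, and the share downregulated from 10.3% to 11.1% with a low of 8.24% in the middle bin. Over 5 bins of length, the share upregulated went from 11.2% in the shortest genes to 5.65% in the longest, and the share downregulated was 9.99% and 10.2%. The lowest bin of level had a median of 137 control reads and the highest 2090, and counting error moved with the level. Its part in these shares was not tested.

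**Figure D5:**
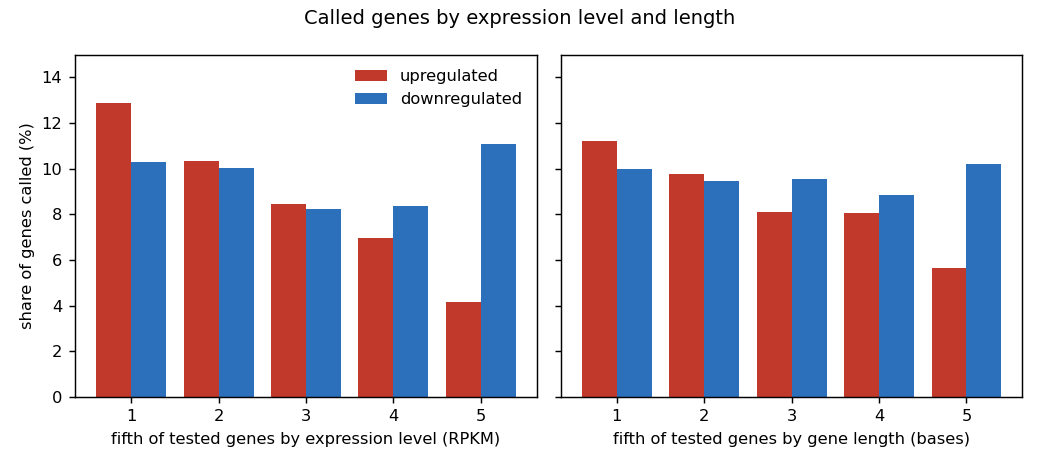
Share of genes called (y axis, percent) in 5 equal bins of the tested genes by expression level (left, 1 lowest) and by gene length (right, 1 shortest), with bars for upregulated and downregulated genes. The upregulated share falls from 12.9% to 4.14% with level and from 11.2% to 5.65% with length, and the downregulated share stays between 8.24% and 11.1%.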

How the data were processed

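Total RNA of 4 cultures, 1 per mimic, was sequenced by the authors, who per the methods trimmed reads after FASTQC with Cutadapt, aligned them with STAR 2.7 to Rnor 6.0 and deposited RPKM values computed with edgeR. The counting program and its use of strand are not given in the sources used here, so reads of overlapping and antisense genes could not be separated, and near-identical copies such as histone and ribosomal protein genes are uncertain. Whole reads were recovered from the steps of the RPKM values for all 15731 genes, as the smallest whole numbers of reads and bases that gave the deposited values, so both are too low for genes in which they share a factor. They gave depths of 15175185 to 18797234 reads and 95% counting intervals (1.96 standard errors), which cover counting error only.

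Log2 RPKM of the control was subtracted from that of each mimic without a pseudocount, for genes above 1.0 RPKM in all 4 libraries. The methods name a cutoff of 2, which was an alternative. The 3 differences were averaged, and their SD (n = 3 mimics) is the spread between treatments. No test was run.

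Named genes were, each way, the 12 with the largest difference of the mimic nearest to the control and the 6 with the smallest SD past 1.5-fold, then 8 with the largest SD within 1.3-fold, up to 3 each way from each of 45 lists, and 13 genes named for the cluster. The first 3 sets had a geometric mean above 5 RPKM and a unique symbol that was not a placeholder such as LOC or RGD. Some genes that met these rules are not reported here. The members and lists were chosen with earlier results of these data known. Symbols listed more than once, 176 in number, entered no list. Overlaps came from RefSeq GRCr8, where 13588 genes matched by symbol. They are mentioned above for some genes only. Other named genes also overlap, among them Ccne2 with Ints8, Tead2 with Cd37, Slc16a3 with Csnk1d and Slc27a1 with Pgls. Egfl7 overlaps Agpat2, and Mtor overlaps Angptl7. Alternatives changed the cutoffs, pseudocount, scaling, averaging and the mimics included. The scripts (Python 3.11.15, numpy 2.4.6, pandas 2.3.3, scipy 1.17.1, matplotlib 3.10.9) were tested on simulated data.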

Additional observations from a re-analysis of the deposited data

How the results depend on the processing

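With 1 library per mimic and 1 control the spread within a treatment is unknown, so every count describes these 4 libraries. Counting error limited low genes, and upregulated genes had as few as 2 control reads. The counts of 940 upregulated and 1054 downregulated genes stayed within 1.5-fold under 13 of 18 settings in each direction. They were 199 and 367 at an RPKM cutoff of 10, where fewer genes were tested, 374 and 480 at a fold cutoff of 1.5, 73 and 104 at a fold cutoff of 2, and 371 and 343 where each mimic had to pass 1.3-fold. With the libraries scaled to the same sum of RPKM the counts were 1838 and 513. Leaving out each mimic in turn gave between 1009 and 1278 upregulated and between 1189 and 1440 downregulated genes. The median of the fibroblast markers ran from -0.68 to -0.23 over these, the value without miR-25 being the smallest in size. The median of the mesothelial markers was 0.019 at an RPKM cutoff of 10, which left no macrophage or red cell marker. Of 628 values of list medians 59 moved by more than the SD among the mimics, as did 88 of 2676 values of named genes, and none with a call reversed. The sign of the list median changed in 4 lists without miR-106b, 6 without miR-93 and 13 without miR-25, and the cause was not tested. No paired analysis was possible because each mimic and the control had 1 library and the labels carry no replicate numbers.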

Other observations

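Lists of general cell functions, which no comparison above describes, stand beside shares of 8.56% upregulated and 9.6% downregulated over all tested genes. Of 31 tested proteasome genes, whose products degrade tagged proteins, 0 were upregulated and 0 downregulated, with a median mean log2 difference of -0.02 and medians by mimic of 0.02, -0.06 and -0.11, in the order miR-106b, miR-93, miR-25. Of 41 autophagy and lysosome genes 2 were upregulated and 5 downregulated, with a median of -0.12, and without miR-25, 10 were downregulated. Of 28 chromatin and DNA methylation enzymes 1 was upregulated and 4 were downregulated, with a median of 0.05 and an average of -0.03. Without miR-25, 3 were upregulated and 2 downregulated. Ezh1, a histone methyltransferase, had 1.45, 1.82 and 1.85 RPKM with the mimics and 2.45 RPKM in the control, a mean of -0.53 ± 0.20. Dnmt1, which copies DNA methylation, had a mean of -0.47 ± 0.37 that was -0.28 without miR-25, where it was not called.

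Of 44 cytosolic ribosomal protein genes 2 were upregulated and 5 downregulated, with a median of -0.15, and the many processed copies of these genes leave the assignment of their reads uncertain. Without miR-106b the median was -0.27 with 15 downregulated, without miR-25, 2 were, and under the scaling to the same sum 3 were upregulated and 1 downregulated. Rpl38 had 3.00, 1.37 and 2.58 RPKM with the mimics and 1.04 RPKM in the control, a mean of 1.09 ± 0.60, but with 5 control reads its counting interval of -0.26 to 2.44 included 0. Rps27 had 107, 64.8 and 52.6 RPKM against 113 RPKM, a mean of -0.67 ± 0.53. Of 21 genes of microRNA processing and Argonaute function 2 were upregulated and 1 was downregulated, with a median of 0.04. The member that fell, Ago3, an Argonaute protein, had a mean of -0.44 ± 0.17 with all mimics and -0.34 without miR-25, where it was not called.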
